A study of Mus musculus with 24 samples.

Results

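Glial cells carry out the support functions of the brain. Oligodendrocytes wrap axons in myelin and arise from dividing progenitor cells, astrocytes clear glutamate and potassium and contact blood vessels, and microglia are the resident immune cells. Each type is recognised by genes that it uses and that neurons mostly do not, and in most tissues a gene's promoter is little methylated in the cells that use it. In DNA from a whole tissue, such genes are read from all cell types together. DNA methylation at 35 autosomal glial identity genes was therefore described here, as a check on the mixture of cells in each group of mice. The members were chosen by position. They were the CpGs of the deposited methylation table inside the GENCODE M21 span of 15 oligodendrocyte, 10 astrocyte and 10 microglia genes, or within 2 kb of it, and there were 1057 of them among 694379 CpGs in all, with the 2 strands of a CpG counted apart.

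The 24 mice were female and of the C57BL/6JRj strain and their dentate gyrus was micro-dissected and profiled by reduced representation bisulfite sequencing (RRBS). Young STD mice (8 mice) were 3 months old and lived in standard cages (STD), aged STD mice (8 mice) were 17 months old and lived in standard cages, and aged ENR mice (8 mice) were 17 months old and had spent their last 3 months in environmental enrichment (ENR), a large cage with toys and tunnels. RRBS sequences bisulfite-converted fragments cut at CpG-rich sites, and the deposited value is the percentage of reads in which a CpG was methylated, given for each DNA strand and each mouse. The aging comparison is aged STD minus young STD, the ENR comparison is aged ENR minus aged STD, and both share the aged STD mice. A mouse had a value at 308751 to 608017 of the CpGs, and the read number behind a value is unknown beyond a minimum of 10. One library stood apart: aged STD mouse 5 had a mean of 42.4% at the 8628 CpGs read in all mice, where the others had 45.0 to 47.5%. Over all CpGs it covered its mean was 23.6%, against 35.8 to 44.5% in the other mice, and over the member regions with a level 28.3%, against 34.3 to 44.6%. RNA was not measured, so the tissue label could not be checked against expressed markers. In whole tissue, a smaller share of a cell type and a different methylation within its cells cannot be told apart.

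Coverage of the glial genes followed their class. Oligodendrocyte genes had 482 CpGs, astrocyte genes 357 and microglia genes 218, and S100b (a calcium-binding astrocyte protein) and Tyrobp (a microglial signalling adaptor) had none. Promoter CpGs, those within 1 kb of any annotated transcript start of the gene, numbered 273 at 12 oligodendrocyte genes and 214 at 8 astrocyte genes, against 10 at 2 microglia genes. The remaining 209, 143 and 208 CpGs lay in the gene bodies or their 2 kb flanks. Per mouse, 470 to 909 of the 1057 CpGs had a value. Only 3 had one in all mice, and 122 had one in at least 6 mice of each group.

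Promoter CpGs of oligodendrocyte and astrocyte genes were mostly unmethylated, and the few that were read at microglia genes were methylated to 20.2% or more. Averaged over the 3 group means, 229 of 273 oligodendrocyte promoter CpGs (83.9%) and 160 of 214 astrocyte promoter CpGs (74.8%) lay below 10%, as did 81.4% of all promoter CpGs of the table. None of the 10 microglia promoter CpGs, at Aif1 and P2ry12, did. Among 18 further microglia genes, the 8 promoters with a level had a median of 3.35% in young STD mice. The body CpGs had a median of 39.5% at oligodendrocyte genes, 14.5% at astrocyte genes and 65.1% at microglia genes. Over all body CpGs the median was 75.2%. Of the microglia body CpGs, 133 were counted for Cx3cr1, and 69 of these lay below 10%. Only 4 of the 133 lie within 2 kb of the gene's RefSeq span, and 66 lie within 1 kb of starts of other genes. By region, median levels in young STD mice were 62.2% for oligodendrocyte, 52.7% for astrocyte and 84.6% for microglia bodies. Over all bodies the median level in these mice was 63.4%. The plot by distance shows low values around the starts. Oligodendrocyte CpGs had a median of 0% in the 500 bp before a start and 1.32% in the 500 bp after it, and 76.3% between 2000 and 5000 bp. Astrocyte CpGs had medians of 1.499% and 0.543% on the 2 sides of a start. Low astrocyte values between 2000 and 5000 bp (median 0% over 31 CpGs) include the 25 CpGs downstream of Aldoc, all of which lie within 1 kb of the start of its neighbour Pigs.

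**Figure D1:**
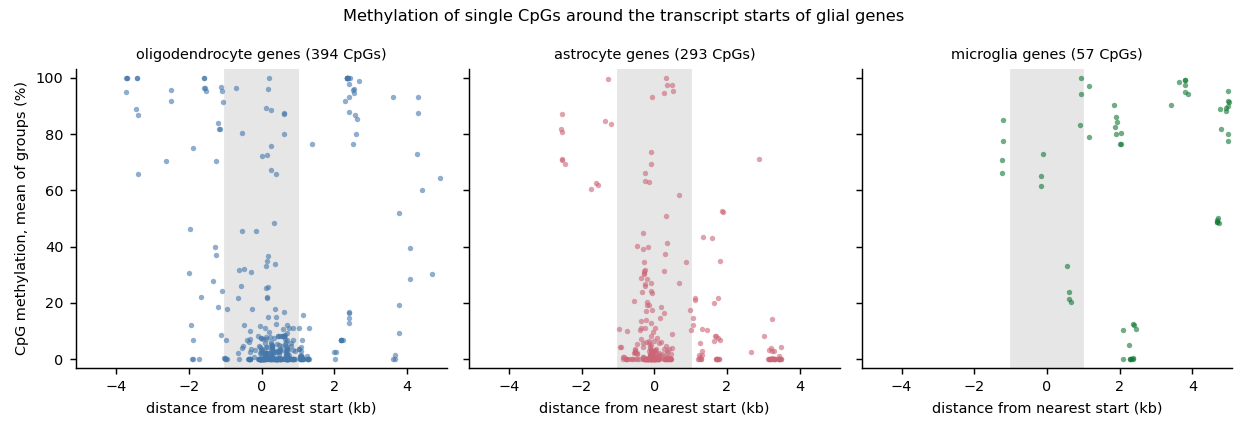
Methylation of each CpG (mean of the 3 group means, in percent) against its distance in kb from the nearest transcript start of its gene, up to 5 kb, for oligodendrocyte, astrocyte and microglia genes. The grey band marks the promoter; the points gather near 0% inside it for the first 2 classes, while the 10 microglia promoter CpGs lie between 20.2% and 100%.

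The promoter sequences show how the genes differ in CpG content. The 4 windows below run from 250 bp before to 50 bp after a start, are taken from RefSeq promoters on GRCm38.p6, and have the CpGs that were measured here in capitals. They were picked to show dense, middle and sparse promoters. The Nkx6-2 window, chr7:139582748-139583047 on the minus strand, holds 32 CpG dinucleotides, of which 19 were measured in 27 rows with a mean of 1.54%. The Cldn11 window, chr3:31149670-31149969 on the plus strand, holds 24, of which 6 were measured in 7 rows with a mean of 1.60%. The Aldh1l1 window, chr6:90550543-90550842 on the plus strand, holds 9, of which 4 were measured in 5 rows with a mean of 26.7%. The Aif1 window, chr17:35176003-35176302 on the minus strand, holds 1, which was not measured. The median over 32851 such windows of the genome is 7 CpG dinucleotides.
Nkx6-2: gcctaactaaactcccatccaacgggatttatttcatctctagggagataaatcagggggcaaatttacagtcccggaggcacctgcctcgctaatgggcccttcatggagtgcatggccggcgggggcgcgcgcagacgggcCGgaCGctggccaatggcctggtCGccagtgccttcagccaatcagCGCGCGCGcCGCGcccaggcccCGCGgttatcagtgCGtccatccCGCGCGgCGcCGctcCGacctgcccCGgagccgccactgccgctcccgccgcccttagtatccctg
Cldn11: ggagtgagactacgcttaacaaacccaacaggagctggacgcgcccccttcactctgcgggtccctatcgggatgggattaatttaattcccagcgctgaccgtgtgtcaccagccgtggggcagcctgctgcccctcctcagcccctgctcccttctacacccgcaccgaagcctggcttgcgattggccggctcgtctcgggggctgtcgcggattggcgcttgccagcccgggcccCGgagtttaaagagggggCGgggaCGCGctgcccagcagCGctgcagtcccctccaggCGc
Aldh1l1: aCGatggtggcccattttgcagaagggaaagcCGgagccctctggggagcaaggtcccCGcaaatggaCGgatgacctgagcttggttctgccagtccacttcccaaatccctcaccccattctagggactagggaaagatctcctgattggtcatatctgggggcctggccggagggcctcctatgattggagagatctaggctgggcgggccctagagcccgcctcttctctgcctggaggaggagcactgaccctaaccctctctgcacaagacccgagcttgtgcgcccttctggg
Aif1: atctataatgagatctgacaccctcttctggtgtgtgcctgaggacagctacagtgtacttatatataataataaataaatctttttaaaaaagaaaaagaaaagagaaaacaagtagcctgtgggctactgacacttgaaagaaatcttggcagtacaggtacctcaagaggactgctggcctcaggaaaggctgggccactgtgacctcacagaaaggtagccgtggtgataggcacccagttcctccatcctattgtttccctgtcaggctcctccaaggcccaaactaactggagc
Within 1 kb of any start, CpG density ranged from 7.996 per kb at S100b to 81.7 per kb at Nkx6-2. Across the 20 promoters with at least 4 measured CpGs, mean methylation was lower where the density was higher (Spearman's rho −0.72, Pearson's r −0.55, given as a description over genes, which share mice and libraries). The 13 promoters without a measured CpG had 7.996 to 27.5 CpG dinucleotides per kb (median 13.3), and 8 of them belong to microglia genes.

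**Figure D2:**
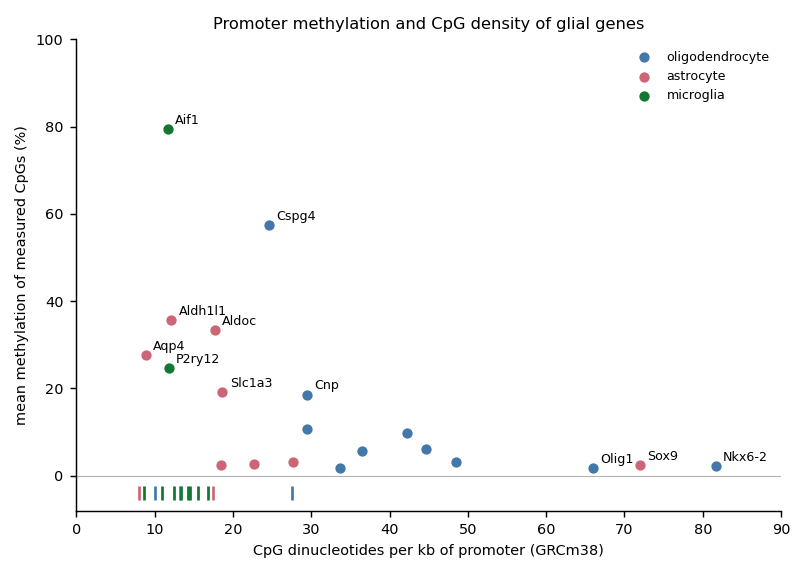
Mean methylation in percent of the measured promoter CpGs against CpG dinucleotides per kb of promoter, one point per gene with at least 4 measured CpGs, coloured by class; ticks below 0 mark the 13 genes without a measured promoter CpG. Olig1, Sox9 and Nkx6-2, at 66.0 to 81.7 CpG dinucleotides per kb, lie at 1.74 to 2.36%, and Aif1, at 11.7 per kb, lies at 79.5%.

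Among the oligodendrocyte genes, 4 transcription factors had mostly low promoters. Over all groups, promoter levels were 1.74% at Olig1, 3.20% at Olig2, 12.1% at Sox10 and 2.03% at Nkx6-2, which all act in the lineage, and the Olig2 body was as low, at 4.46 to 6.37% in the 3 groups. Myrf, a transcription factor of myelination, was read in its body alone, at 51.8 to 62.2%. A level is the mean of a mouse's CpGs after each CpG was centred on its mean over the groups, so that mice with different CpGs can be compared. It can fall outside 0 to 100%, and far outside at single regions, such as −33.4% at the Cnp promoter in aged ENR mouse 2. The progenitor genes differed from each other. The promoter of Pdgfra, a growth factor receptor, had 1.58 to 2.04%, and that of Cspg4, a surface proteoglycan, was the most methylated of the class among promoters with at least 4 CpGs, at 60.1 ± 19.6% in young STD (SD, n = 8), at 52.5 ± 12.0% in aged STD (SD, n = 6) and at 65.6 ± 10.9% in aged ENR (SD, n = 8). Of its 15 promoter CpGs, 8 had a mean of 30.4% and lay near the start of the neighbouring gene Odf3l1, and 7 at starts farther downstream lay between 72.7% and 100%.

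Of the myelin genes, some had highly methylated bodies and others low ones. Bodies of Mog, Mag and Mobp, 3 myelin proteins, lay at 91.3 to 94.9%, 77.9 to 81.2% and 75.7 to 87.2% in the 3 groups, and that of Opalin, a membrane protein of oligodendrocytes, whose 5 CpGs lie upstream, at 92.8 to 100%. The 2 CpGs read at the starts of Mobp averaged 83.6%, and none were read at those of Mog and Mag. The tight junction gene Cldn11 and the glycolipid enzyme Ugt8a had promoters of 3.10 to 9.80% and 2.49 to 12.1% by group mean. The upper ends include aged STD mouse 8 at 44.5% for Cldn11 (group median 6.53%) and aged ENR mouse 1 at 58.9% for Ugt8a (group median 7.32%). The promoter of Cnp, an enzyme of myelin, varied more between mice, at 26.0 ± 17.98% in young STD (SD, n = 8), at 20.9 ± 9.10% in aged STD (SD, n = 7) and at 10.8 ± 20.7% in aged ENR (SD, n = 7). The last mean includes aged ENR mouse 2 at −33.4%, and the medians were 16.6%, 17.6% and 16.7% in the same order. Mbp encodes a main protein of compact myelin and has more than one group of starts. The 29 CpGs at its upstream starts averaged 7.32%, and the 2 CpGs at a start inside the gene averaged 58.9%. Its body, with 32 intronic CpGs, lay at 29.7 to 39.3%. By group mean, low bodies in the class were those of Cldn11 (8.35 to 11.4%), Nkx6-2 (0.95 to 15.8%) and Sox10 (26.1% at most), and the other bodies with a level were Ugt8a (82.6 to 88.2%), Cspg4 (67.2 to 68.0%) and Pdgfra (45.8 to 50.4%). Single mice were far higher, at 73.0% for Nkx6-2 in young STD mouse 4 and 97.1% for Sox10 in young STD mouse 8.

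Astrocyte promoters fell into a low and a middle set. Slc1a2, a glutamate transporter, had a promoter level of 2.40% over all groups, and the gap junction genes Gja1 and Gjb6 had 4.004% and 2.06%, the latter being the lowest of the class. Sox9, a transcription factor of astrocytes, had 2.32%. The promoter of Slc1a3, the other glutamate transporter, at 18.4 to 20.3%, averaged 22 CpGs at its upstream starts with a mean of 1.43% and 5 CpGs at a start inside the gene with a mean of 96.9%. The middle set held Aldh1l1, a folate enzyme, at 34.9%, Aqp4, the water channel of astrocyte endfeet, at 27.3%, and Aldoc, an enzyme of glycolysis, at 34.8%. Aldh1l1 was the highest of the class and had close group means, at 33.1 ± 9.46%, 36.6 ± 7.03% and 34.9 ± 9.86% (SD, n = 8 each) in the same order of groups. Single mice lay between 13.2% and 53.0%. Of its 28 promoter CpGs, 5 with aging and 6 with ENR differed by over 25 points, in both directions, against 4.47% and 3.92% of all promoter CpGs. Gfap, an intermediate filament gene, was read in its body alone, with 7 CpGs at 77.2 to 94.1%. The other bodies lay at 38.4 to 46.3% for Aldh1l1, 20.2 to 21.9% for Aqp4, 47.1 to 53.9% for Slc1a2, 53.6 to 59.6% for Slc1a3, 68.2 to 80.2% for Gjb6 and 73.8 to 94.4% for Gja1, and were low at Sox9 (1.60 to 5.03%) and Aldoc (0.20 to 1.03%).

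Microglia genes were read mostly in methylated bodies. Levels in the 3 groups were 82.0 to 92.6% at Csf1r, the receptor on which microglia depend, 81.1 to 91.0% at Trem2, a lipid receptor, 84.1 to 90.1% at Tmem119, a microglial membrane protein, 68.7 to 75.5% at P2ry12, a purine receptor, and 79.1 to 89.8% at Itgam, an integrin. C1qa, a complement gene, was lower, at 15.96 to 19.0%. Cx3cr1, the fractalkine receptor, had 133 CpGs at 37.3 to 38.5%, but its GENCODE span is much longer than its RefSeq span. Only 4 of its CpGs lie within 2 kb of the RefSeq span, with a mean of 96.8%, and 66 lie within 1 kb of the starts of 5 other genes. Spi1, a transcription factor of myeloid cells, had 3 body CpGs with a mean of 85.01%, too few for a level. The Aif1 promoter level, of a gene for an actin-binding protein, ranged between 36.1% and 113% in young STD (median 87.0%), between 50% and 100% in 5 aged STD (median 87.0%) and between 46.3% and 93.5% in 5 aged ENR mice (median 85.1%). Its 3 CpGs at the upstream starts averaged 92.5% and the 3 at the other starts 66.5%. On the centred scale, 3 CpGs that all read 100% give 87.0% at the former and 113% at the latter, so these values also reflect which CpGs a mouse covered. The P2ry12 promoter, with 4 CpGs, spanned −2.56 to 46.5% (median 12.6%), −2.56 to 85.3% (median 26.3%) and 0 to 97.4% (median 24.5%) in the same order. These 2 promoters varied more between mice of one group than between groups.

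**Figure D3:**
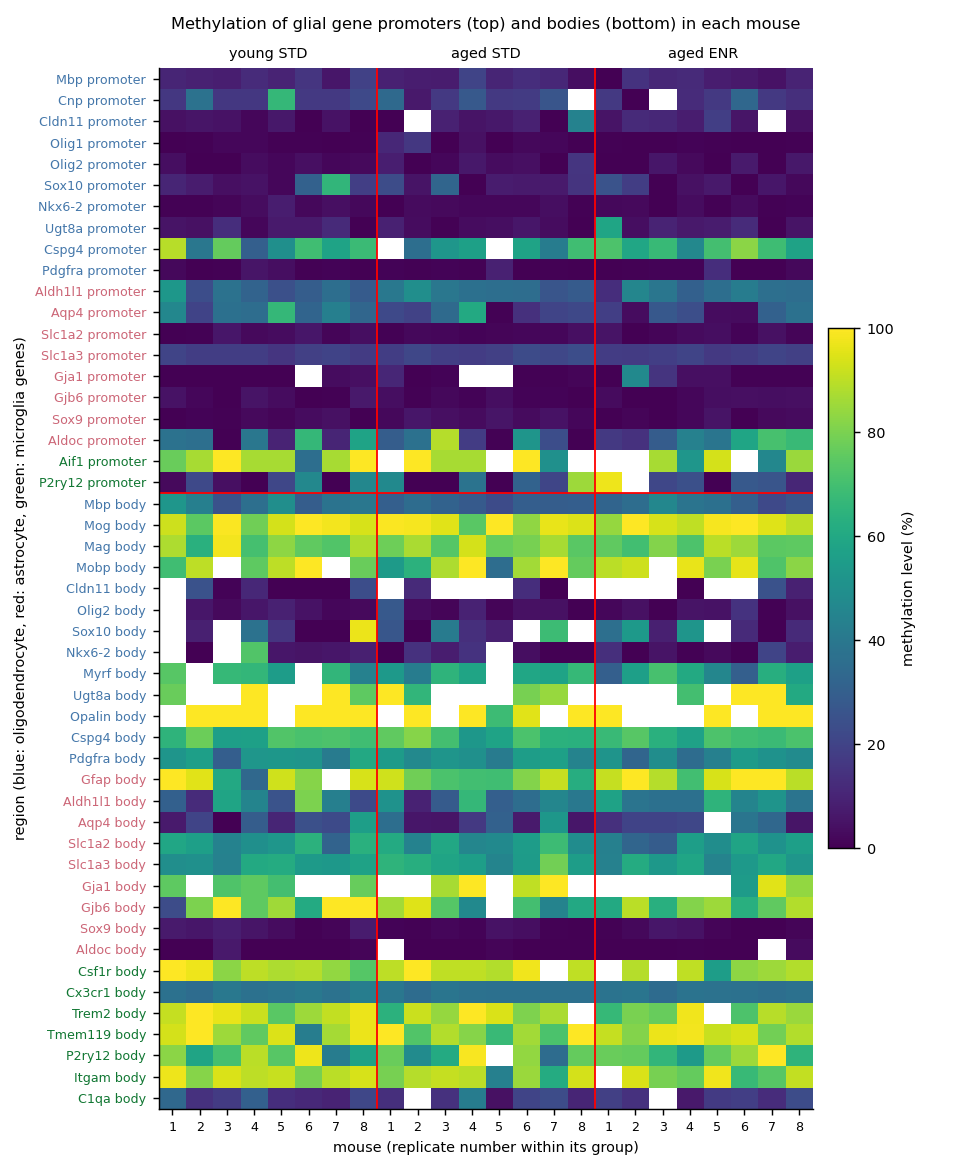
Methylation level in percent of the 49 member regions with at least 4 CpGs (rows; promoters above, bodies below, in list order within a class) in each of the 24 mice (columns, by group); colours are held at 0 and 100% and white marks no level. Rows run from dark promoters such as Nkx6-2 and Sox9 to bright bodies such as Mog and Csf1r. The Gja1 body (group means of 73.8%, 94.4% and 78.0%, in the order of the columns) and the Aqp4 promoter (39.2%, 24.2% and 18.5%) differ in shade between groups. Some rows, such as the Sox10 body (SD of 38.1 points in young STD mice) and the P2ry12 promoter, vary widely between mice.

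As a check on the mixture of cells, the levels of each class were averaged per mouse, and no class separated the groups. How far such a level would move with a given change in the mixture was not tested. Of the 497 member promoter CpGs, 389 (78.3%) lay below 10% and had little room to fall. Overlap at promoters therefore cannot show that cell shares were alike. Body levels of the 13 oligodendrocyte regions ranged between 51.8% and 59.9% in young STD (median 53.6%), between 40.05% and 57.5% in aged STD (median 53.0%) and between 49.6% and 55.3% in aged ENR mice (median 53.3%). The lowest value belongs to aged STD mouse 5. The aging difference of −3.22 points and the ENR difference of 1.33 points became −1.37 and −0.31 points without that mouse. Promoter levels of the 10 oligodendrocyte regions had means of 13.2 ± 2.83%, 12.2 ± 2.68% and 12.0 ± 3.43% (SD, n = 8 each) for the groups in the order young STD, aged STD, aged ENR, and differed by −1.07 points with aging and −0.17 points with ENR. The ENR difference was 0.12 to 2.68 points under the 5 other ways tried to compute the level.

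Astrocyte and microglia levels overlapped between the groups as well. Promoter levels over 8 regions ranged between 11.2% and 20.5% in young STD (median 16.2%), between 7.88% and 23.9% in aged STD (median 16.1%) and between 9.26% and 21.3% in aged ENR mice (median 16.2%). Their means differed by −1.20 points with aging and 1.17 points with ENR, and by −0.12 and 0.10 points without aged STD mouse 5, which again had the lowest value. Body levels over 9 regions were 45.8 ± 4.58%, 45.4 ± 5.82% and 47.0 ± 3.64% (SD, n = 8 each). Microglia bodies, over 7 regions, ranged between 62.9% and 77.2% in young STD (median 69.3%), between 56.0% and 79.5% in aged STD (median 66.6%) and between 64.9% and 68.5% in aged ENR mice (median 66.0%). Their aging difference was −2.52 points and −1.06 points without aged STD mouse 5, against an SD between mice of one group of 5.26 points. The microglia promoter level rests on 10 CpGs, had an SD of 24.7 points between mice, and differed by 7.48 points with aging and −1.17 points with ENR. Both moved with single mice. Without aged STD mouse 8 they were 0.27 and 6.51 points, the aging difference was 11.6 to 12.0 points without young STD mouse 8 or aged STD mouse 5 or 7, and the ENR difference was −13.4 points without aged ENR mouse 1. Of these glial class levels, none differed in either comparison by more than 1 SD between mice of a group. As the members were chosen with results known, no p is given for them.

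**Figure D4:**
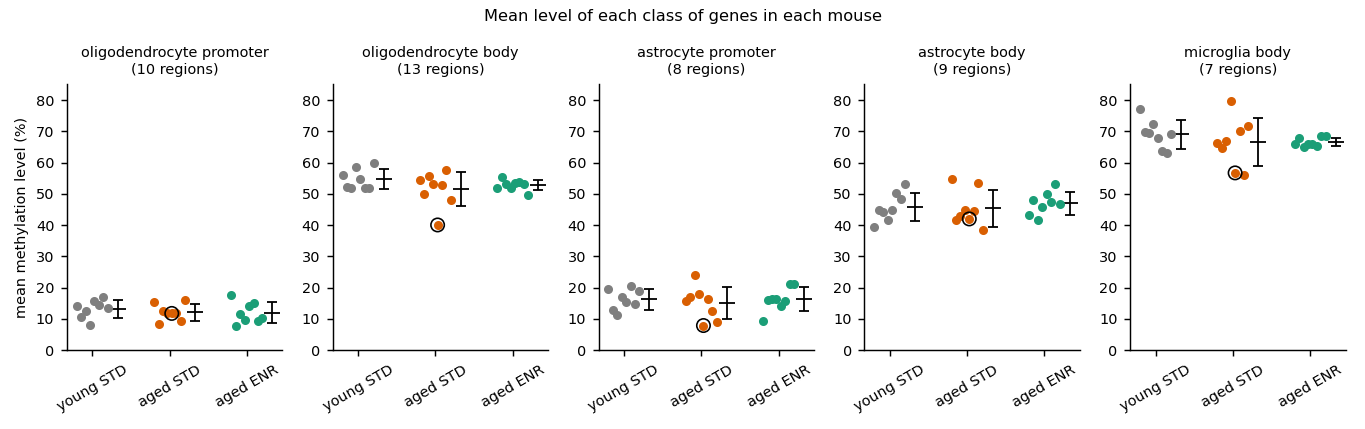
Mean methylation level in percent of each class of genes in each mouse (points), with the mean and SD of each group of 8 mice (bars); the circle marks aged STD mouse 5, and the microglia promoters are left out. The groups overlap in every panel, and the circled mouse is lowest for oligodendrocyte bodies and astrocyte promoters.

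The 318 member CpGs with a mean between 10% and 90% were averaged as well. Their mean per mouse was 43.8 to 56.0% in young STD (median 49.6%), 36.5 to 52.1% in aged STD (median 48.3%) and 42.8 to 50.1% in aged ENR mice (median 46.5%). By class, the aging difference was −4.20 points at 135 oligodendrocyte CpGs, 0.10 points at 108 astrocyte CpGs and −4.46 points at 75 microglia CpGs, and the ENR difference was 1.27, −0.50 and −1.12 points. Without aged STD mouse 5, the aging differences were −2.80, 1.35 and −2.52 points and the ENR differences −0.13, −1.75 and −3.06 points. The groups overlapped in all 3 classes.

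Single promoters and bodies were then tested with limma over all 33319 gene regions of the table. No member region reached an adjusted p under 0.05 (Benjamini-Hochberg) in the aging comparison, in which 0% of all regions did, and the smallest adjusted p of a member was 0.885. At an unadjusted p under 0.05 there were 5 of 49 member regions (10.2%), against 5.52% of all regions. By direction, 17 member regions were higher and 32 (65.3%) lower in aged STD mice, against 52.2% of all regions lower. The median difference was −0.91 points over oligodendrocyte promoters, −0.47 over oligodendrocyte bodies, 0.46 over astrocyte promoters, −1.03 over astrocyte bodies and −1.18 over microglia bodies, against 0.00 over all promoters and −0.43 over all bodies. The precision differed widely. The 95% interval had a median half-width of 10.4 points, and at 15 of 49 regions it lay wholly within 10 points of 0, at 8 within 5 points.

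The body of Mbp, with 32 CpGs, was lower in most aged STD mice than in most young ones. Its level ranged between 25.2% and 52.7% in young STD (median 38.8%), between 22.8% and 35.2% in aged STD (median 29.9%) and between 22.1% and 46.2% in aged ENR mice (median 34.1%). The groups overlapped, and aged STD mouse 5 was below every young mouse. The difference was −9.57 ± 3.51 points (SE, 95% interval −16.8 to −2.30, unadjusted p = 0.0122, adjusted p = 0.885 by limma). The difference of aged ENR from aged STD mice was 3.84 ± 3.51 points (SE, adjusted p = 0.945 by limma). In aged STD mouse 5 the level rests on 2 CpGs, and without that mouse the aging difference was −8.47 points. It was −16.9 points over the CpGs with at least 5 mice in each group and −15.5 points with a plain mean of the covered CpGs (unadjusted p = 0.0296 and 0.0037, adjusted p = 0.875 and 0.970 by limma).

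At Sox9 the promoter and the body differed in opposite directions, both at very low levels. Its body, 24 CpGs, had 0.40 to 8.44% in young STD (median 5.91%), −0.38 to 4.71% in aged STD (median 0.99%) and −0.38 to 5.86% in aged ENR mice (median 1.36%), an aging difference of −3.43 ± 1.23 points (SE, unadjusted p = 0.0107, adjusted p = 0.885 by limma). Its promoter, 45 CpGs, had −1.39 to 4.42% (median 1.09%), 1.94 to 6.15% (median 3.56%) and −0.47 to 5.34% (median 1.61%). The aging difference was 2.38 ± 0.98 points (SE, unadjusted p = 0.0234, adjusted p = 0.885 by limma), and the ENR difference was −2.18 ± 0.98 points (SE, unadjusted p = 0.0357, adjusted p = 0.945 by limma). Over the CpGs with at least 5 mice in each group the promoter differences were 0.71 points with aging and −2.81 points with ENR (unadjusted p = 0.826 and 0.389), and with promoters widened to 2 kb they were 0.78 and −1.12 points (unadjusted p = 0.320 and 0.158, adjusted p = 0.899 and 0.949 by limma). Between 0 and 8 of a mouse's promoter CpGs and between 0 and 2 of its body CpGs read above 0%, so a level rests on few CpGs.

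At the Olig1 promoter the differences rested on few mice. Its 34 CpGs, all in the exon, gave −0.88 to 1.74% in young STD mice (median 0.61%), −0.23 to 16.02% in aged STD mice (median 1.94%) and −0.88 to 1.11% in aged ENR mice (median 0.40%). Aged STD mice 1 and 2, at 11.1% and 16.02%, stood above all others. In mouse 1, 1 of 9 covered CpGs read 100%, and in mouse 2, 4 of 25 did, at other positions, while the remaining CpGs read 0%. The aging difference was 3.86 ± 1.76 points (SE, unadjusted p = 0.0391, adjusted p = 0.885 by limma) and the ENR difference −4.13 ± 1.76 points (SE, unadjusted p = 0.0283, adjusted p = 0.945 by limma). Without aged STD mouse 2 they were 2.13 and −2.33 points, and with promoters widened to 2 kb they were 5.58 and −2.75 points. Gja1 had 4 body CpGs and few mice. The levels were 75.0%, 72.4%, 75.0%, 70.0% and 76.6% in 5 young STD mice, 86.8%, 100%, 90.6% and 100% in 4 aged STD mice, and 54.9%, 95.6% and 83.6% in 3 aged ENR mice. The young and aged STD values did not overlap, and the difference was 20.6 ± 6.81 points (SE, unadjusted p = 0.0126, adjusted p = 0.885 by limma).

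In the ENR comparison no member region passed either, with a smallest adjusted p of 0.945 (limma with Benjamini-Hochberg), while 0.009% of all regions did. The promoters of Olig1 and Sox9 were the 2 of 49 member regions (4.08%) with an unadjusted p under 0.05, against 4.77% of all regions, and both were lower in aged ENR mice. In all, 25 member regions were higher and 24 (49.0%) lower, against 53.4% of all regions lower. Median differences were −1.38 points over oligodendrocyte promoters, 0.80 over oligodendrocyte bodies, −0.53 over astrocyte promoters, 0.37 over astrocyte bodies and −0.05 over microglia bodies, against −0.16 over all promoters and −0.25 over all bodies. The interval lay wholly within 10 points of 0 at 14 of 49 regions, and its median half-width was 11.1 points. Among the highest and lowest promoters, the Cspg4 promoter differed by 13.1 ± 7.83 points with ENR (SE, 95% interval −3.23 to 29.4), that of Aldh1l1 by −1.77 ± 4.33 points and that of Gjb6 by 0.92 ± 1.25 points.

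**Figure D5:**
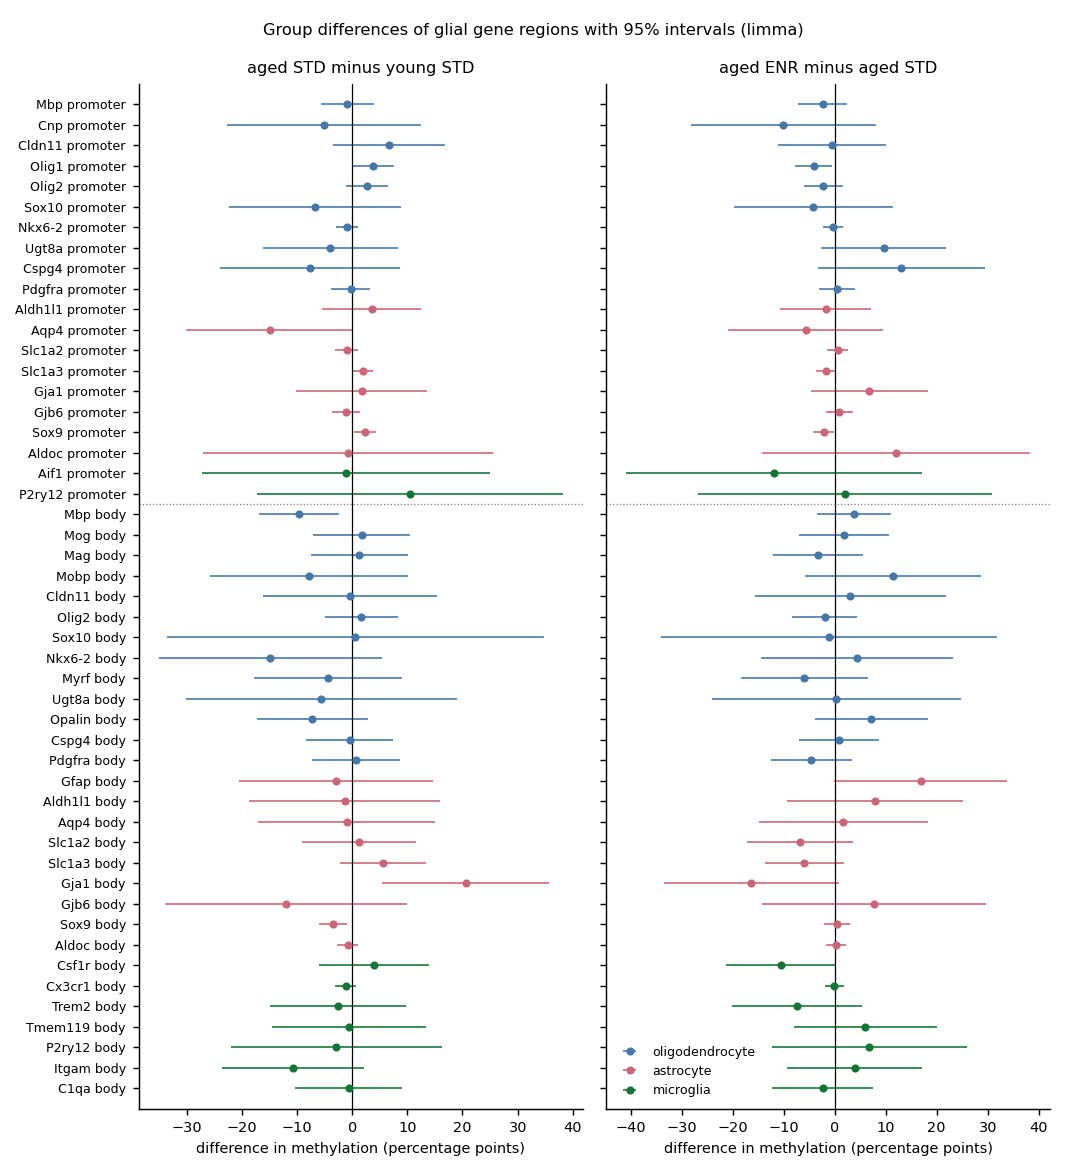
Difference in methylation in percentage points of the 49 member regions, aged STD minus young STD (left) and aged ENR minus aged STD (right), with 95% intervals from limma; colours mark the classes and the dotted line parts promoters from bodies. Points lie on both sides of 0, and intervals are narrow at CpG-rich promoters such as Nkx6-2 and wide at regions such as the Sox10 body and the P2ry12 promoter.

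Single CpGs gave 1 call. With limma over all 694379 CpGs, none of the 1057 member CpGs had an adjusted p under 0.05 in the aging comparison, where 0.0049% of all CpGs had, and 26 (2.46%) had an unadjusted p under 0.05, against 2.23% of all. In the ENR comparison 1 member CpG passed, where 0.00446% of all CpGs did, and 24 (2.27%) had an unadjusted p under 0.05, against 1.9% of all. By the size criterion of the study alone, a difference of group means over 25 points, and with no test, 98 member CpGs (9.27%) differed with aging, against 9.16% of all CpGs. Aged STD mice were higher at 41 and lower at 57 of these, against 4.15% and 5.01% of all CpGs. With ENR 9.56% of the member CpGs differed, against 8.33% of all. Aged ENR mice were higher at 44 and lower at 57, against 3.82% and 4.51% of all CpGs. At promoters the shares were 5.43% with aging and 5.84% with ENR, against 4.47% and 3.92% of all promoter CpGs, and in bodies 12.7% and 12.9%, against 14.3% and 13.3%. Among the 122 CpGs with at least 6 mice per group they were 4 and 3 CpGs (3.28% and 2.46%, against 3.64% and 3.42%). Of these CpGs, 96 with aging and 100 with ENR had a mean between 10% and 90%. By count the leading genes were Aldh1l1 (16 with aging and 11 with ENR of 45 CpGs, 35.6% and 24.4%), Cspg4 (11 and 15 of 56, 19.6% and 26.8%), Mbp (9 and 13 of 63, 14.3% and 20.6%) and Cx3cr1 (10 and 10 of 133, 7.52% each).

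Among CpGs with at least 6 mice per group, the 6 with the smallest p lay in Aqp4, Slc1a3, Cspg4, Pdgfra, Olig2 and Itgam, and all had an adjusted p of 1.00 by limma. For 5 of them 30 bases of GRCm38 around the CpG, which is in capitals, are given on the plus strand, so that the sites can be found. The windows are chr15:8682794-8682823 in an intron of Slc1a3, chr9:56886759-56886788 in an exon of Cspg4, chr5:75194204-75194233 in an intron of Pdgfra, chr16:91226029-91226058 in an intron of Olig2 and chr7:128116058-128116087 in an exon of Itgam.
Slc1a3: tttgctggcagtccCGgcttatcggctttg
Cspg4: ttccagctccttggCGtctcctctggtgtc
Pdgfra: tatgtgactgcaacCGgcttagactgtatg
Olig2: catttattccaggcCGgactgaagaaataa
Itgam: ctcactccaatttcCGggatcagcttgaaa

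These 5 CpGs were divided between the comparisons. The Cspg4 CpG read 0% in 2 of 6 young STD mice (median 65.4%) and 80.7 to 100% in the aged STD mice, an aging difference of 41.6 ± 15.8 points (SE), and 100% in all 8 aged ENR mice. Its 2 measured neighbours within 50 bp had aging differences of −3.40 and 16.5 points, neither with an unadjusted p under 0.05 by limma. The Itgam CpG, within 1 kb of the start of the gene Gm49368, had group medians of 100%, 79.4% and 66.7% in the order young STD, aged STD, aged ENR, with an aging difference of −22.2 ± 10.2 points (SE) that was −17.9 points without aged STD mouse 5. The Slc1a3 CpG had 59.3 to 100% in aged STD mice (median 99.0%) and 0 to 100% in aged ENR mice (median 48.8%), an ENR difference of −41.6 ± 14.4 points (SE). The Olig2 CpG, 586 bp from the start, had a median of 14.1% in aged STD mice and of 0% in both other groups. Its high values were 71.4% and 75.6% in aged STD mice 1 and 8, and the ENR difference was −22.9 ± 10.1 points (SE). The measured neighbour within 50 bp read 4.55%, 3.82% and 6.04% in the 3 groups, an ENR difference of 2.23 points. The Pdgfra CpG read 97.7 to 100% in all young and aged STD mice with a value and 68.8 to 100% in aged ENR mice, of which 3 of 7 were below 90%, a difference of −9.57 ± 3.71 points (SE).

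The Aqp4 CpG, at chr18:15403478 on the minus strand in an intron 280 bp from a start, had 9.57 to 95.2% in young STD mice (median 82.0%), 0 to 57.1% in aged STD mice (median 32.4%) and 0 to 34.4% in aged ENR mice (median 0%). Of the young mice, 7 of 8 were at 57.1% or above, and no mouse of either aged group was above that value. The aging difference was −38.8 ± 12.3 points (SE, unadjusted p = 0.00503, adjusted p = 1.00 by limma), and −33.5 points without aged STD mouse 5. The Aqp4 promoter, whose 5 CpGs include it, had levels of 39.2 ± 13.5%, 24.2 ± 17.5% and 18.5 ± 13.8% (SD, n = 8 each) in young STD, aged STD and then aged ENR mice, and its aging difference of −15.0 points had an unadjusted p of 0.0524 and an adjusted p of 0.885 by limma.

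The CpG that passed in the ENR comparison lies in an intron of Mbp, at chr18:82534371 on the minus strand. It read 100% in each of 3 young STD mice, 92.7%, 100% and 72.5% in 3 aged STD mice, and 0%, 0%, 0%, 0% and 14.8% in 5 aged ENR mice. The aged ENR mice were thus far below the others, at −85.4 ± 6.10 points from aged STD mice (SE, adjusted p = 0.0157 by limma). The other 13 mice had no value. On a log2 scale of the percentages its adjusted p was 0.415, and with at least 5 mice required in each group it was not tested. The same CpG on the plus strand, at 82534370, showed no such step. There, 5 young STD mice had 0 to 100% (mean 48.1%), 6 aged STD mice 0% in 5 and 100% in 1, and 5 aged ENR mice 0%, 50%, 100%, 0% and 0%. The ENR difference on that strand was 13.3 ± 25.6 points (SE). In the same mouse the strands could disagree fully. Young STD mouse 3 read 100% on the minus and 0% on the plus strand, and aged ENR mouse 5 read 0% and 100%. At member CpGs read on both strands, values were exactly equal as deposited (a difference of 0) in 75.0% of 1092 comparisons within a mouse and differed by over 25 points in 14.1%. At the 21 CpGs with both strands between 10% and 90%, 43.6% of 225 comparisons differed by over 25 points.

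Lists of further glial, neuronal and vascular genes were measured in the same way. The promoters of 9 excitatory and granule neuron genes had class levels of 4.12 ± 1.43% (SD, n = 8) in young STD mice, and those of 6 inhibitory neuron genes had a mean of 4.02%. In the same mice the class levels were 13.2% and 16.3% for the oligodendrocyte and astrocyte members, 17.7%, 7.22% and 11.8% for the further oligodendrocyte, astrocyte and microglia genes and 8.82% for vascular genes. The median promoter was at 4.76% for the oligodendrocyte members, 10.6% for the astrocyte members, 4.17%, 2.38% and 3.35% for the further oligodendrocyte, astrocyte and microglia genes, 8.94% for vascular genes and 3.07% for excitatory and granule neuron genes. By limma, no region of these lists had an adjusted p under 0.05 in either comparison, and of their 110 regions 9 (8.18%) had an unadjusted p under 0.05 with aging and 6 (5.45%) with ENR, against 5.52% and 4.77% of all regions. Among 13 further oligodendrocyte bodies, 7 were higher in aged STD mice (median 0.04 points) and 7 were lower in aged ENR mice (median −0.07 points). Mal, a myelin proteolipid, had a body difference of −19.4 points with aging and 22.4 points with ENR, and Gpr17, a receptor of maturing progenitors, one of −10.01 points with aging, while Vcan, a proteoglycan, had one of −12.3 points with ENR. Further microglia and astrocyte bodies were mostly higher in aged STD mice (7 of 9 and 8 of 11, medians 2.84 and 3.23 points), whereas 6 of 7 and 6 of 9 bodies of the members were lower. Of all gene bodies 54.4% were lower (median −0.43 points). Vascular bodies were lower at 10 of 11 regions (median −5.59 points), and their class level differed by −4.74 points, against an SD between mice of 4.35 points, and by −3.82 points without aged STD mouse 5. The smallest p among them was that of Kdr, a receptor of endothelial cells, at −15.7 ± 4.31 points (SE, adjusted p = 0.622 by limma). In the ENR comparison 8 of those 11 were higher (median 5.76 points), and further microglia bodies were lower at 8 of 9 (median −1.51 points), against 53.0% of all bodies lower (median −0.25 points). The smallest p with aging was that of Dio2, a thyroid hormone deiodinase of astrocytes, whose body was 23.3 ± 5.25 points higher in aged STD mice (SE, adjusted p = 0.402 by limma). The smallest p with ENR was that of Neurod2, a transcription factor of neurons, whose body differed by −4.21 ± 1.04 points (SE, adjusted p = 0.945 by limma), and by 3.41 points with aging (adjusted p = 0.787 by limma). The body of Neurod1, of the same list, went the other way, at −5.57 points with aging and 2.16 points with ENR (adjusted p = 0.885 and 0.947 by limma). Class levels of excitatory and granule neuron genes differed by 0.21 points with aging and −0.44 points with ENR at promoters and by 0.13 and −2.002 points in bodies, against SDs between mice of 1.79 and 3.00 points. Those of inhibitory neuron genes differed by −0.79 and −0.01 points at promoters and by −0.12 and 2.09 points in bodies, against SDs of 1.89 and 4.74 points.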

How the data were processed

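Dentate gyrus DNA of 24 mice was profiled by RRBS. Per the labels, the submitters' processing notes name Trim Galore 0.4.0, cutadapt 1.8.1, Bismark 0.16.1, methylKit 1.5.2 and the mm10 build, and the study's methods give later versions of Trim Galore and Bismark. The authors required 10 or more reads of a CpG, below an upper limit on coverage, and values for 3 or more mice of each group, and deposited the percent methylation of each CpG, strand and mouse, without read numbers. Depth is therefore unknown, and the read-level test of the study could not be run.

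Genes came from GENCODE M21 (GRCm38, the same assembly as mm10). Promoter CpGs lay within 1 kb of any start of the gene, and regions needed at least 4 CpGs and a mouse at least 2 covered CpGs. Mice were the replicates. One model of the 3 groups was fitted to region levels and to single CpGs (limma 3.58.1, R 4.3.3), and p-values were adjusted over all features by Benjamini-Hochberg. The script was tested on simulated data. The remaining steps used Python 3.11.15 with pandas 2.3.3, numpy 2.4.6 and scipy 1.17.1, with pysam 0.24.0 for sequences and matplotlib 3.10.9 for plots. All 1057 CpGs lay at a CG of the reference. Of the 35 genes, 24 matched RefSeq promoter windows.

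Full values are given for up to 10 regions with the smallest p under 0.05 in either comparison, the highest and lowest promoter of each class, up to 6 CpGs with the smallest p among those with at least 6 mice per group, and CpGs with an adjusted p under 0.05. The promoter windows shown, and the genes named from the neuronal, vascular and further glial lists, were picked with their values in view. The members and lists were chosen with earlier results of these data known. Labels use the same replicate numbers in each group for different animals, and the deviations of same-numbered mice did not correlate (mean r −0.004 over 24 pairs). Alternatives were other CpG and mouse minimums, plain means, weights, a variance trend, a log2 scale, wider promoters, autosomes only, a replicate block and leaving out each mouse. Alternatives without body CpGs near the start of another gene, and CpGs between 10% and 90% and vascular bodies without aged STD mouse 5, were added after seeing the data.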

Additional observations from a re-analysis of the deposited data

Results flagged for a closer look

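Within a group, 12 of 64 sets of values held a mouse far from the others by Dixon's test, where chance gives about 1 in 20 for independent, normally distributed values. These values are neither: the microglia promoter level contains the P2ry12 and Aif1 promoters, and for the Mbp, Cspg4 and Pdgfra CpGs all other mice of the group were tied, so that any deviation passes. The number is therefore not compared with chance. Aged ENR mouse 1 accounts for 3 of them. Its P2ry12 promoter level was 97.4% (others 0 to 27.8%) and rests on 2 covered CpGs, its microglia promoter level was 126% (others 36.3 to 56.0%) on the centred scale, and its Aldh1l1 promoter level was 13.2% (others 30.6 to 45.9%).

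The microglia promoter level of young STD mouse 8 was 79.6%, where the others had 39.9 to 58.6%. The Aif1 promoter level was 36.1% in young STD mouse 6 (others 77.3 to 113%) and 50% in aged STD mouse 7 (others 87.0 to 100%).

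At single CpGs, the Mbp CpG read 14.8% in aged ENR mouse 8 and 0% in the others of its group. The Aqp4 CpG read 9.57% in young STD mouse 8 (others 57.1 to 95.2%), and the Itgam CpG read 67.6% in young STD mouse 6 (others 92.6 to 100%). The Olig2 CpG read 11.4% in aged ENR mouse 4 (others 0 to 3.77%). Against values of 100% in the rest of the group, the Cspg4 CpG read 80.7% in aged STD mouse 6 and the Pdgfra CpG read 97.7% in young STD mouse 5.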

How the results depend on the processing

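No member region had an adjusted p under 0.05 by limma in either comparison under any alternative, or without any 1 of the 24 mice. The Mbp CpG of the ENR comparison was not called with at least 5 mice per group (0 CpGs called, since it has too few mice), on the log2 scale (0 called, its adjusted p 0.415) or with a replicate block (0 called, difference −86.3 points, adjusted p = 1.00). The replicate block called 1 of 1034 member CpGs, in Gfap, in the aging comparison, and 0.0871% of all CpGs. It called no region, and the numbers do not pair the mice. The CpGs over 25 points in the aging and ENR comparisons became 17 and 11 of 297 with at least 5 mice per group (5.72% and 3.70%, against 5.15% and 4.72% of all CpGs at that setting), 332 and 319 at a limit of 10 points (31.4% and 30.2%, against 29.0% and 27.9%), and 28 and 22 at 40 points (2.65% and 2.08%, against 2.63% and 2.27%). The cause was not tested.

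Without 1 mouse at a time, the aging difference ranged over −1.73 to −0.45 points for oligodendrocyte promoters, −4.49 to −1.37 for oligodendrocyte bodies, −2.43 to −0.12 for astrocyte promoters, −1.82 to 0.60 for astrocyte bodies, 0.27 to 12.0 for microglia promoters and −4.69 to −1.04 for microglia bodies. The ENR difference ranged over −0.95 to 0.48, −0.31 to 2.20, 0.10 to 2.36, 0.69 to 2.97, −13.4 to 6.51 and −1.50 to 2.15 points in the same order. Over the other alternatives 7 of 12 class levels changed sign in at least 1, each level moving by less than 1 SD. The aging difference lay between −3.71 and 2.35 points for astrocyte bodies and −2.49 and 0.16 for oligodendrocyte promoters. The ENR difference of oligodendrocyte promoters, −0.17 as reported, was positive under all 5 (0.12 to 2.68), while it lay between −0.28 and 3.03 for oligodendrocyte bodies, −0.10 and 2.42 for astrocyte bodies, −2.51 and 2.28 for microglia bodies and −6.11 and 2.04 for microglia promoters. The aging difference of astrocyte promoters, −3.71 to −0.56, kept its sign. Single CpGs were refitted without aged STD mouse 5 alone, which left 94 and 95 CpGs over 25 points.

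Read numbers were not analysed here, so counting error cannot be separated from the spread between mice. Of the 10 microglia promoters 8 had no measured CpG, and 304 of the 1057 CpGs had no spread within groups.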
